A study of Homo sapiens with 6 samples.

Results

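The TRIM family was examined in HT29 cells, a human colorectal adenocarcinoma line with epithelial morphology, 48 h after transfection with an siRNA against the glycolytic enzyme ALDOA (siALDOA) or with a scrambled siRNA (siControl). Its members were taken by name, as gene symbols made of TRIM, digits and at most 1 trailing letter from A to D, which gave 71 of the 28278 genes listed in the count tables. The cells labelled siALDOA carry the genotype label ALDOA KD and the control cells the label WT, and each group held 3 biological replicates. All 6 libraries come from transfected cells. In bulk RNA, fewer cells that express a gene and less RNA per cell cannot be told apart.

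TRIM proteins carry a RING domain, a B-box and a coiled coil in this order, and the RING domain makes most of them E3 ubiquitin ligases. The C-terminal part divides the family into classes and mostly decides what the protein binds. The largest class ends in a PRYSPRY domain and holds many antiviral proteins, such as TRIM5, which recognises retroviral capsids, and TRIM21, a cytosolic antibody receptor. Other members, such as TRIM28, act in the nucleus as co-repressors of transcription. Several TRIM genes are known as targets of interferon, and TRIM25 is known for its action on the RNA sensor RIG-I.

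Promoter stretches of TRIM genes whose mRNA differed at an adjusted p < 0.05 (called genes), with that of TRIM26 for contrast, are shown first, because interferon-stimulated response elements are built from repeats of GAAA and because many of the genes that rose are known as interferon targets. A word made of GAAA, any 2 bases and GAAA again was searched on both strands of the RefSeq promoters (GRCh38.p14, 250 bases before to 50 bases after each start site). The word was chosen after the expression values had been seen. The table held 75 promoters of 56 TRIM genes, and TRIM22 and TRIM11 were not among them. Of the 7 TRIM genes with higher mRNA that had a promoter there, 4 held the word, namely TRIM5, TRIM14, TRIM21 and TRIM34. The lower gene TRIM44 held it too, and TRIM25, TRIM38 and TRIM56 did not. By gene, the word stood in 4.38% of all 27305 genes of the table and in 3.93% of the 11344 tested ones. It stood in 14.2% of the 513 genes that were higher with siALDOA and in 2.53% of the 633 that were lower. The TRIM family as a whole held it in 10 of 56 genes, or 17.9%, and its tested members in 8 of 38, or 21.1%. TRIM64C and TRIM69 held it and were not tested. By promoter, it stood in 3.57% of all 35116. Capitals mark the word on either strand, and every sequence is written in the direction of its gene.
TRIM21: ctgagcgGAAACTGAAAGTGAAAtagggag
TRIM5: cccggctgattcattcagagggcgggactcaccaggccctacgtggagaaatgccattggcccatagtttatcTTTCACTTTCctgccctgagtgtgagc
TRIM14: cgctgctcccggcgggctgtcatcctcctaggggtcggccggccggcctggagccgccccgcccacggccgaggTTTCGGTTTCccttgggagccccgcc
TRIM34: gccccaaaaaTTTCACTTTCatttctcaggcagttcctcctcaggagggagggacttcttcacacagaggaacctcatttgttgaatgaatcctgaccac
TRIM44: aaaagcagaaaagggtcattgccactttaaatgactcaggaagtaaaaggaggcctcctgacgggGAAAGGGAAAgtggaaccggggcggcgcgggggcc
TRIM26: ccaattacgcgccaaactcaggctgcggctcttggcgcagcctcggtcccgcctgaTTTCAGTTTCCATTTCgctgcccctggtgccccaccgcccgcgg

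The TRIM21 stretch lies at chr11:4393663-4393692 on the minus strand, past the start site, and holds 2 overlapping copies of the word. The TRIM5 stretch covers chr11:5685075-5685174 on the minus strand, the TRIM14 stretch chr9:98119223-98119322 on the minus strand and the TRIM34 stretch chr11:5624901-5625000 on the plus strand. Each of these 3 is the 100 bases before a start site, and TRIM34 has a further start site without the word. The TRIM44 stretch is the same part of its promoter, at chr11:35662675-35662774 on the plus strand. TRIM26, an interferon target by reputation whose mRNA did not pass the test here, also held 2 overlapping copies, at chr6:30213557-30213656 on the minus strand. Among the 30 TRIM genes with a promoter that were tested and not called, 3 held the word, namely TRIM2, TRIM16 and TRIM26. A second word, TTCNNNGAA, known from STAT binding sites and its own reverse complement, stood in 0 of the 8 promoters of the higher TRIM genes, in 6 of the 45 promoters (13.3%) of the uncalled ones, in 15 of all 75 TRIM promoters and in 7.66% of all promoters. These are matches of letters and were not measured as binding sites.

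The libraries held from 27277538 to 33237914 counts on genes, and 0 counts in a library still allow up to 0.108 CPM (read counts scaled to a common library size, here the TMM-scaled total) in siALDOA replicate 1, where 1 count weighed most (counting error only). ALDOA was at 283, 305 and 279.7 CPM with siALDOA and at 592, 637 and 668 CPM with siControl, which gave a log2 fold change (log2FC, siALDOA over siControl) of -1.13 (standard error, SE, 0.060, edgeR adjusted p = 6.95e-11). Genes of ribosomal RNA took from 7.71% to 17.4% of the counts, with the highest shares in siControl replicates 1 and 2 and in siALDOA replicate 1. Epithelial markers were present, except LGALS4 with 0 counts in every library. Their summed level ran from 9479 to 9811 CPM with siALDOA and, without overlap, from 10044.6 to 10606 CPM with siControl. Among them the keratin KRT18 was lower by -0.28 (edgeR adjusted p = 0.0152) and KRT19 higher by 0.38 (edgeR adjusted p = 5.77e-04), and the part of this shift in the TRIM results was not tested. Of the leukocyte markers reported here, CD3E and TYROBP had 0 counts in every library, and PTPRC, CD53 and FCER1G stayed below the filter. CD14 was the exception, at 16.2, 17.1 and 17.6 CPM with siALDOA and at 12.5, 14.5 and 13.6 CPM with siControl, higher by 0.32 (edgeR adjusted p = 0.0485), and its part in the TRIM results was not tested. The summed fibroblast markers ran from 3.16 to 4.33 CPM with siALDOA and from 3.05 to 4.46 CPM with siControl. Endothelial and striated muscle markers summed to less than 1 CPM in every library.

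Of the 71 TRIM genes, 49 passed the filter on low counts and were tested together with all other genes, 15307 in all. TRIM22, TRIM21, TRIM5, TRIM38, TRIM14, TRIM56, TRIM25 and TRIM34 were higher with siALDOA, and TRIM44 and TRIM11 were lower, at an adjusted p < 0.05 of edgeR's quasi-likelihood test. The 8 higher genes were 16.3% of the tested members, where 4.36% of all tested genes were higher. The 2 lower genes were 4.08% of the tested members, close to the 5.29% of all tested genes. In either direction 10 members, 20.4%, were called, against 9.66% of all tested genes. The log2FC values of the tested members ran from -0.85 to 2.09 with a median of 0.11, and 31 lay above 0. The median of all tested genes was 0.0016, with 50.3% of them above 0. The median of the members ran from 0.062 without siALDOA replicate 1 and 0.063 without siControl replicate 2 to 0.148 without siControl replicate 1, and it was 0.189 with library totals only. In 22 members the 3 libraries of each group did not overlap, 15 with siALDOA above and 7 with siALDOA below. This was 44.9% of the tested members against 27.7% of all tested genes. The 15 members above were 30.6%, against 13.1% of all tested genes, while siALDOA was below in 14.6% of all tested genes, about the share that 7 of 49 members make. At the threshold of unadjusted P < 0.01 that the study used, 11 members were higher and 4 lower, where 5.72% and 6.74% of all tested genes passed.

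**Figure D1:**
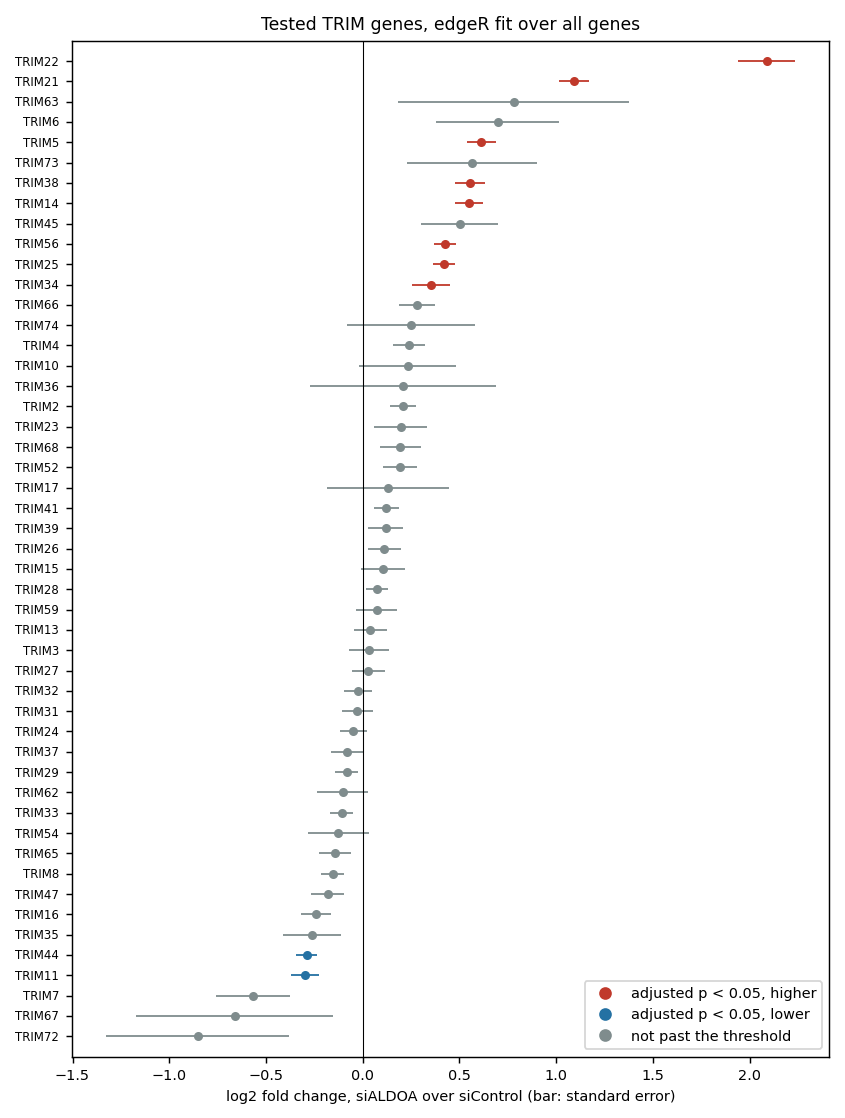
Log2FC of siALDOA over siControl for each of the 49 tested TRIM genes, in order of size, with bars for the SE and colours for the call. TRIM22 at 2.09 and TRIM21 at 1.09 stand furthest to the right, and genes of low count such as TRIM72 and TRIM63 have the widest bars.

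The largest change was that of TRIM22, a nuclear and cytoplasmic PRYSPRY protein known for restricting HIV transcription and influenza virus. TRIM22 was at 16.4, 24.8 and 22.2 CPM in the 3 siALDOA libraries and at 4.59, 5.73 and 4.61 CPM in the siControl libraries. The lowest siALDOA library was thus far above the highest siControl library. TRIM22 rose 4.25-fold, a log2FC of 2.09 (SE 0.15, adjusted p = 3.36e-09). TRIM21, the antibody receptor that sends antibody-coated virus to the proteasome, was at 49.4, 58.1 and 59.1 CPM with siALDOA and at 26.2, 26.6 and 25.3 CPM with siControl. The siControl libraries lay close together, and every siALDOA library was at a higher level than all of them. TRIM21 rose 2.13-fold, a log2FC of 1.09 (SE 0.079, adjusted p = 5.11e-09).

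TRIM5, the retroviral capsid sensor, was at 53.5, 64.8 and 59.4 CPM with siALDOA and at 38.2, 40.6 and 37.5 CPM with siControl. It rose 1.53-fold, a log2FC of 0.61 (SE 0.075, adjusted p = 1.26e-05). TRIM34, its neighbour and close relative, was at 20.3, 22.8 and 23.0 CPM with siALDOA and at 15.8, 18.7 and 17.2 CPM with siControl. The groups of TRIM34 were separated only by the step from 18.7 to 20.3 CPM, and its log2FC was 0.35 (SE 0.097, adjusted p = 0.0234). The call of TRIM34 did not hold without siALDOA replicate 2 (adjusted p = 0.0874), siALDOA replicate 3 (0.0871), siControl replicate 1 (0.0912) or siControl replicate 3 (0.0835). TRIM34 shares 83.6% of its annotated exon bases with the readthrough symbol TRIM6-TRIM34. That symbol had 576, 688 and 661 counts with siALDOA, where TRIM34 had 565, 685 and 653, so reads of both cannot be told apart. TRIM6, the other gene of the readthrough, was at 1.90, 1.597 and 2.53 CPM with siALDOA and at 1.73, 0.95 and 1.03 CPM with siControl. Its groups overlapped, and its log2FC of 0.70 (SE 0.32, adjusted p = 0.187) did not pass the threshold.

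TRIM14 lacks a RING domain and is known as an adaptor of MAVS and a stabiliser of cGAS. It was at 183, 229 and 224 CPM with siALDOA and at 138, 146 and 151 CPM with siControl, a 1.46-fold rise (log2FC 0.55, SE 0.073, adjusted p = 3.36e-05). TRIM56, which is known to act on STING, cGAS and viral RNA, was at 297, 329 and 313 CPM with siALDOA and at 239, 227 and 233 CPM with siControl. It rose 1.34-fold (log2FC 0.43, SE 0.057, adjusted p = 3.65e-05). TRIM25, the ligase known for RIG-I and for the antiviral protein ZAP, was the most abundant of the higher genes by CPM, at 375, 414 and 413 CPM with siALDOA and at 293, 299 and 307 CPM with siControl. It also rose 1.34-fold (log2FC 0.42, SE 0.057, adjusted p = 4.62e-05). TRIM38, known as a feedback regulator of innate signalling, was at 47.3, 49.6 and 49.7 CPM with siALDOA and at 37.0, 30.6 and 32.2 CPM with siControl. TRIM38 rose 1.47-fold (log2FC 0.56, SE 0.077, adjusted p = 6.00e-05). In TRIM14, TRIM56, TRIM25 and TRIM38 all siALDOA libraries were above all siControl libraries.

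In all 8 higher genes siALDOA replicate 1 was the lowest of the siALDOA libraries, as the plot of CPM by library shows. The highest was replicate 2 in 5 genes and replicate 3 in 3 genes. The ALDOA level of replicate 1, 283 CPM, lay between those of the other siALDOA libraries. Its share of ribosomal RNA genes was 13.1%, against 7.71% and 8.11% in replicates 2 and 3, and the part of this share in the order of the libraries was not tested. Without siALDOA replicate 1 the same test called 8 higher and 2 lower members, with log2FC values of 2.24 for TRIM22 and 1.17 for TRIM21.

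**Figure D2:**
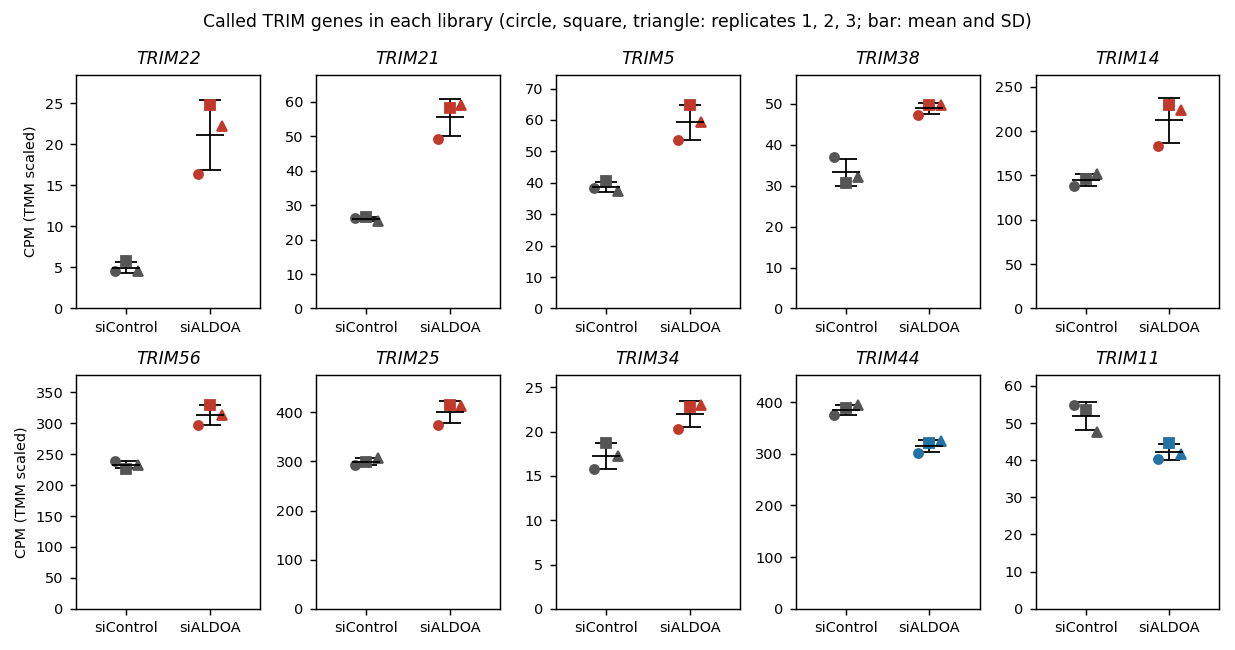
CPM of the 10 called TRIM genes in each of the 6 libraries, 1 panel per gene with an axis from 0, with circles, squares and triangles for replicates 1, 2 and 3 and bars for the mean and SD. In no panel do the 2 groups overlap, and the siALDOA circle is the lowest red point in all 8 panels of the higher genes.

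TRIM44 and TRIM11 moved the other way. TRIM44 has no RING domain, carries a zinc finger of ubiquitin proteases and is known to stabilise MAVS. It was at 302, 319.8 and 324 CPM with siALDOA and at 375, 388 and 394 CPM with siControl, and every siALDOA library lay below every siControl library. The log2FC of TRIM44 was -0.29 (SE 0.055, adjusted p = 0.00149), a level of 0.818 times that of siControl. TRIM11, a PRYSPRY ligase known for the clearance of misfolded proteins, was at 40.3, 44.6 and 41.7 CPM with siALDOA and at 54.8, 53.4 and 47.7 CPM with siControl. The log2FC of TRIM11 was -0.30 (SE 0.073, adjusted p = 0.0112), or 0.813 times the siControl level. Neither gene passed the threshold when counts were scaled by library totals only, which moved the overall median of the tested genes to 0.075. The values were then -0.22 for TRIM44 (adjusted p = 0.113) and -0.22 for TRIM11 (adjusted p = 0.124). TRIM11 also missed the threshold without siControl replicate 1 (adjusted p = 0.0540) and without siControl replicate 2 (0.0634).

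Of 9 TRIM genes listed as interferon-inducible from general knowledge, all 9 were tested, 8 were higher and 0 were lower. Of all tested genes 4.36% were higher and 5.29% lower. The list was written with earlier results of these data known. Its count, and its contrast with the members outside it, are thus a description and no independent evidence. The 8 are the higher genes described above, and the ninth is TRIM26. TRIM26 was at 95.8, 99.3 and 114 CPM with siALDOA and at 110.3, 82.1 and 93.8 CPM with siControl, with groups that overlapped and a log2FC of 0.11 (SE 0.087, adjusted p = 0.476). It was called in 0 of the 14 refits, over which its log2FC ran from 0.014 without siControl replicate 2 (adjusted p = 0.957) to 0.23 without siControl replicate 1 (adjusted p = 0.0958), with 0.031 without siALDOA replicate 3 and 0.19 with library totals only. The median log2FC of the list was 0.55, against 0.036 for the 40 tested members outside it, of which 0 were higher and 2 lower. The summed level of the list was 1137, 1292 and 1278 CPM with siALDOA and 902, 877 and 902 CPM with siControl. The summed level of all other members was 2316, 2304 and 2399 CPM with siALDOA and 2453, 2322 and 2382 CPM with siControl, with groups that overlapped.

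A second list held 10 TRIM genes known to act on RIG-I, MAVS, cGAS or STING, of which 5 were higher and 1 was lower, with a median log2FC of 0.33. Among all tested genes 4.36% were higher and 5.29% lower, with a median of 0.0016, and this list too was written with earlier results known. Besides TRIM14, TRIM21, TRIM25, TRIM38, TRIM56 and the lower TRIM44 it holds TRIM4, TRIM31, TRIM32 and TRIM65. TRIM4, which is known to ubiquitinate RIG-I, was at 37.7, 33.5 and 32.5 CPM with siALDOA and at 31.3, 27.9 and 28.6 CPM with siControl. Its groups did not overlap, and its log2FC of 0.24 (SE 0.082, adjusted p = 0.0725) did not pass the threshold. TRIM31, an intestinal ligase known for its action on MAVS, was at 232, 201 and 246 CPM with siALDOA and at 262, 210.04 and 219.5 CPM with siControl. Its log2FC was -0.028 (SE 0.079, adjusted p = 0.876). TRIM32, a ligase with NHL repeats, had a log2FC of -0.025 (SE 0.073), and TRIM65, known for MDA5, one of -0.14 (SE 0.084, adjusted p = 0.317). The signs of TRIM31 and TRIM32 turned with library totals only.

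By domain class, 6 of the 8 higher genes belonged to the PRYSPRY class with a RING domain, which had 23 tested members, 6 higher, 1 lower and a median log2FC of 0.12. The class of RING and B-box proteins without a further domain had 6 tested members, of which 1, TRIM56, was higher and 0 were lower, with a median of 0.22. Of 5 tested TRIM genes without a RING domain, TRIM14 was higher and TRIM44 lower, and the median was -0.083. Of 4 tested genes with a COS box, which binds microtubules, and of 8 tested genes with NHL, MATH, ARF, filamin or transmembrane parts, 0 were called in either direction. Their medians were 0.042 and 0.056. Of all tested genes 4.36% were higher and 5.29% lower, 9.66% in either direction, with a median of 0.0016. In classes of 4 and 8 genes, 0 calls does not stand apart from that share. No test compared the classes with each other.

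**Figure D3:**
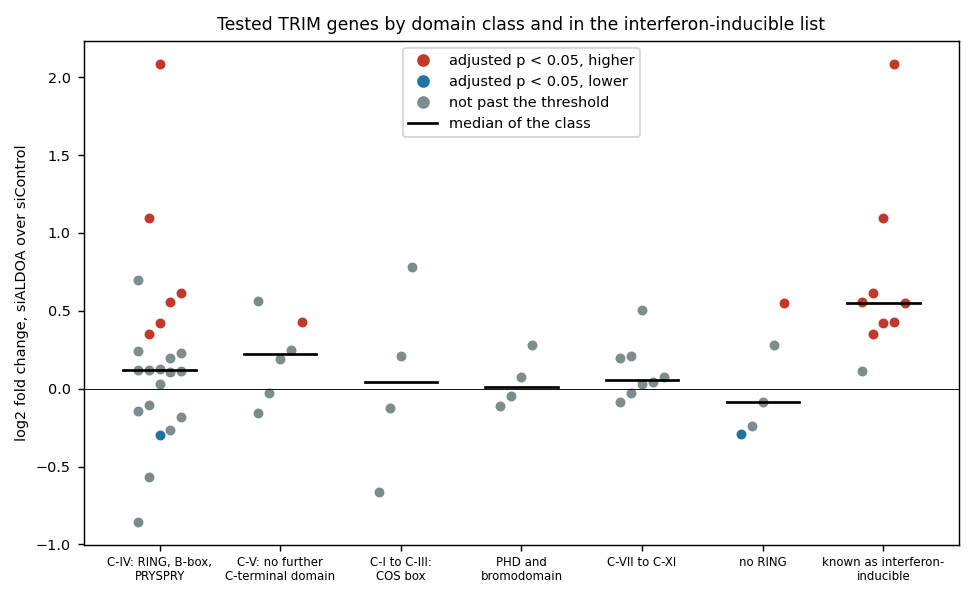
Log2FC of siALDOA over siControl for the tested TRIM genes, grouped by domain class, with the list of interferon-inducible TRIM genes as the last column and a black line at each median. The list median is 0.55, the class medians lie between -0.083 and 0.22, and TRIM66 appears both under PHD and bromodomain and under no RING.

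The nuclear co-repressors with a PHD finger and a bromodomain gave 4 tested genes, 0 of them called, where 9.66% of all tested genes were. TRIM28, the partner of KRAB zinc finger proteins in silencing, was at 662, 689 and 713 CPM with siALDOA and at 647, 645 and 668 CPM with siControl. Its log2FC was 0.074 (SE 0.057, adjusted p = 0.470), and it made up from 19.2% to 20.3% of the summed CPM of the family in every library. TRIM24 and TRIM33, known as regulators of nuclear receptor and TGF-beta signalling, had log2FC values of -0.048 (SE 0.070) and -0.11 (SE 0.060). TRIM24 changed sign with library totals only. TRIM66, a relative without a RING domain, was at 28.1, 31.2 and 28.9 CPM with siALDOA and at 26.0, 20.8 and 25.7 CPM with siControl. The groups of TRIM66 did not overlap, and its log2FC of 0.28 (SE 0.093) had an adjusted p of 0.0626 in the edgeR fit.

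TRIM16, TRIM2 and TRIM7 also came near the threshold without passing it, each with groups that did not overlap. TRIM16, known for its part in the autophagy of damaged lysosomes, was at 32.6, 32.7 and 37.6 CPM with siALDOA and at 39.9, 42.7 and 39.1 CPM with siControl (log2FC -0.24, SE 0.078, edgeR adjusted p = 0.0549). Its near-identical relative TRIM16L, whose symbol is outside the naming rule, was lower by -0.37 (SE 0.12, edgeR adjusted p = 0.0486), and how reads were divided between them is not stated. TRIM2, a ligase with NHL repeats known for neurofilament turnover, was at 136, 125 and 126 CPM with siALDOA and at 124, 102 and 108 CPM with siControl (log2FC 0.21, SE 0.069, edgeR adjusted p = 0.0628). TRIM7, known to bind glycogenin and viral proteins, was at 2.91, 2.96 and 3.06 CPM with siALDOA and at 3.72, 4.65 and 4.86 CPM with siControl (log2FC -0.57, SE 0.19, edgeR adjusted p = 0.0701). TRIM16, TRIM2 and TRIM66 passed with DESeq2 and with no filter on low counts, where TRIM7 passed too, and TRIM2, TRIM4 and TRIM66 passed with library totals only. Without siControl replicate 1, TRIM2 (edgeR adjusted p = 0.00976), TRIM66 (0.0457) and TRIM7 (0.0485) passed, and without siALDOA replicate 3 TRIM16 passed (edgeR adjusted p = 0.0260). The other tested members that were not called had larger adjusted p values, and the 26 uncalled members with a mean of at least 10 CPM had log2FC values from -0.24 to 0.28.

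By position, 4 of the 8 higher genes, one of them TRIM34 with its shared reads, lay in a stretch of the short arm of chromosome 11. Between 4384897 and 6474459 of hg38 lie TRIM21, TRIM68, TRIM6, TRIM34, TRIM5, TRIM22 and TRIM3, separated by gaps of at most 1 Mb. Of these 7 genes 4 were higher, where 4.36% of all tested genes were. TRIM22 (ENSG00000132274, 5689610 to 5737089, plus strand) lies within the annotated span of TRIM5 (ENSG00000132256, 5663195 to 5938619, minus strand). TRIM68 and TRIM3 in the same stretch had log2FC values of 0.19 (SE 0.11, edgeR adjusted p = 0.285) and 0.031 (SE 0.10, edgeR adjusted p = 0.891). The TRIM genes of the HLA region on chromosome 6, from 30102897 to 30343729, gave 5 tested members, TRIM31, TRIM10, TRIM15, TRIM26 and TRIM39, and 0 were called. With 9.66% of all tested genes called, 0 of 5 does not stand apart, and no test compared the stretches. TRIM38, which was higher, lies outside that stretch on the same chromosome at 25962802 to 25991231. The other higher genes were scattered, with TRIM14 on chromosome 9, TRIM25 on chromosome 17 and TRIM56 on chromosome 7.

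For levels between genes, mean CPM was divided by the annotated exon length in kb from GENCODE release 44. TRIM28 had the highest level, at 159.7 CPM per kb with siALDOA and 152 with siControl. TRIM31, known from the gut epithelium, followed with 64.3 and 65.5 CPM per kb. TRIM14, TRIM25, TRIM44, TRIM56, TRIM26 and TRIM21 came next, with levels from 13.5 to 38.7 CPM per kb over both groups. TRIM21 stood at 28.7 CPM per kb with siALDOA and 13.5 with siControl. TRIM22, with the largest fold change, was among the low members, at 1.68 CPM per kb with siALDOA and 0.396 with siControl, and it ranked 39 of the 49 tested genes by the mean of both groups. The authors' annotation is not stated, so lengths may differ from those they used.

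**Figure D4:**
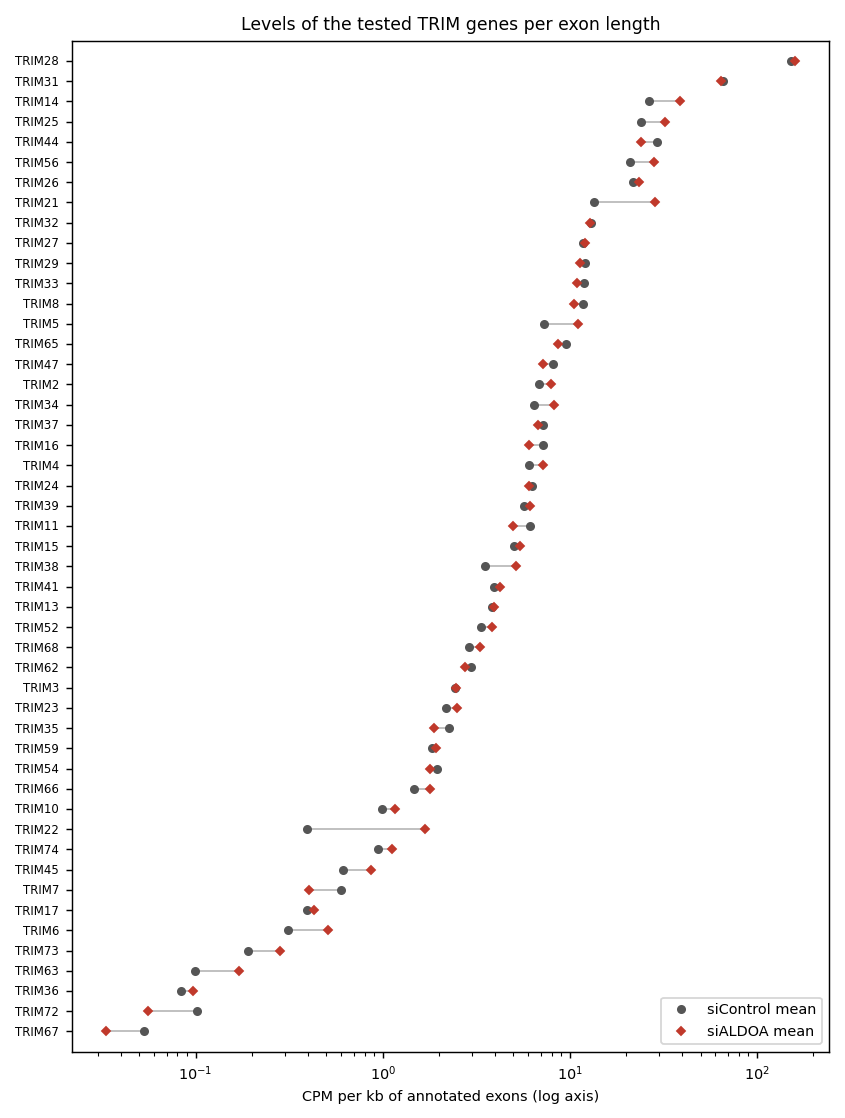
Mean CPM per kb of annotated exons, on a log axis, for the 49 tested TRIM genes in siControl (grey circles) and siALDOA (red diamonds), ordered by the mean of both groups. TRIM28 is highest at 159.7 and 152 CPM per kb, and TRIM22 shows the widest gap between its symbols, 1.68 against 0.396.

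The remaining 22 members were not tested, and 14 of them had 0 counts in every library. These 14 were TRIM40, TRIM43, TRIM43B, TRIM48, TRIM49, TRIM49B, TRIM49C, TRIM51, TRIM55, TRIM58, TRIM64, TRIM64C, TRIM71 and TRIM77. The TRIM43, TRIM49 and TRIM64 genes are near-identical copies, so counts of 0 may also reflect how reads with several matches were handled. TRIM9, TRIM42, TRIM46, TRIM50, TRIM60, TRIM61, TRIM64B and TRIM69 had from 1 to 23 counts over all libraries. TRIM69, a PRYSPRY gene and the highest of these, had counts of 8, 7 and 4 in the siALDOA libraries and of 4, 0 and 0 in the siControl libraries, so the lowest siALDOA library and the highest siControl library had the same count. Of 4 TRIM genes of striated muscle, TRIM55 was at 0, and TRIM54, TRIM63 and TRIM72 were tested with 0 called and a median log2FC of -0.13. With 9.66% of all tested genes called, 0 of 3 does not stand apart.

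Among TRIM family genes with other symbols, 4 of 7 were tested. PML, the scaffold of nuclear bodies and also known as TRIM19, was higher by 0.67 (SE 0.091, edgeR adjusted p = 4.48e-05), and TRIM16L was lower as given above. TRIM16L was not called by limma-voom, with library totals or upper quartile scaling, or without any 1 library other than siControl replicate 2. MID1 and MID2 had log2FC values of -0.0069 and -0.18 and were not called.

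Partners of the family were listed as well, where 4.36% of all tested genes were higher and 5.29% lower. In lists of 14 and 11 genes, counts of 1 or 2 are no result about the partners as a group. Of 14 E1 and E2 enzymes that work with RING ligases, all were tested, 1 was higher and 2 were lower, with a median log2FC of -0.014. The higher one was UBE2L6, the E2 enzyme of ISG15, at 1.72 (SE 0.098, edgeR adjusted p = 1.70e-10). UBE2D4 and UBE2K, E2 enzymes of ubiquitin, were lower by -0.28 (SE 0.084, edgeR adjusted p = 0.0382) and -0.19 (SE 0.060, edgeR adjusted p = 0.0490). The count of 2 became 0 with library totals only and without siALDOA replicate 2, siALDOA replicate 3, siControl replicate 1 or siControl replicate 3, and 1 with upper quartile scaling and without siALDOA replicate 1 or siControl replicate 2. Of 11 partners of TRIM28 in silencing, CBX5, a heterochromatin protein, was higher by 0.23 (edgeR adjusted p = 0.0110) and the deacetylase HDAC1 lower by -0.32 (edgeR adjusted p = 6.68e-04), with a median of 0.037. Without siControl replicate 2 or without siControl replicate 3, 0 genes of this list were higher, and with library totals only 0 were lower.

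In the route from RIG-I to MAVS on which TRIM25 acts, 11 genes were tested, 5 were higher and 1 was lower, with a median log2FC of 0.29. Of all tested genes 4.36% were higher and 5.29% lower, with a median of 0.0016. This list too was written with earlier results of these data known, so its count is a description. The sensors DDX58 (RIG-I), IFIH1 (MDA5) and DHX58 (LGP2) were higher by 1.21, 1.25 and 0.89 (SEs 0.063, 0.069 and 0.13, edgeR adjusted p from 6.02e-11 to 1.45e-04). IRF7 was higher by 0.76 (SE 0.074, edgeR adjusted p = 4.51e-07), and ZC3HAV1, which encodes ZAP, by 0.29 (SE 0.060, edgeR adjusted p = 0.00275). MAVS, the adaptor that TRIM14, TRIM31 and TRIM44 are known to act on, was lower by -0.22 (SE 0.058, edgeR adjusted p = 0.0185). The call of MAVS did not hold with library totals only, without siControl replicate 1 or without siControl replicate 3. RNF135, TRAF3, TBK1, IKBKE and IRF3 had log2FC values from -0.050 to 0.31 and were not called.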

How the data were processed

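RNA-Seq counts of 6 HT29 libraries were used. The authors used tophat2 for alignment (hg38) and gfold for counting by gene symbol, and the deposited counts are whole numbers without normalization. Annotation, strand setting and reads with several matches are not stated. Counts of all genes were fitted in R 4.3.3 with edgeR 4.0.16 (filterByExpr, TMM, quasi-likelihood test, Benjamini-Hochberg adjustment over all tested genes, threshold 0.05). CPM used TMM-scaled totals, and the standard error was taken as the absolute log2FC over the root of its F statistic. Alternatives were DESeq2 1.42.0, limma-voom (limma 3.58.1), 2 other scalings, 2 other filters, ribosomal RNA genes left out, a fit with the replicate number as a block, and fits that left out 1 library each. The procedure was tested on simulated data. Positions and exon lengths came from GENCODE release 44, matching all 71 symbols, and promoters from RefSeq (GRCh38.p14).

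Members, lists and tests were chosen with earlier results of these data known. Genes named were ALDOA, members with an adjusted p < 0.1, the 5 most abundant, the 2 innate lists, TRIM24, TRIM28 and TRIM33, and called partners. Some others (TRIM3, TRIM6, TRIM54, TRIM63, TRIM68, TRIM69, TRIM72 and uncalled partners) were named after their values were seen. The summed leukocyte list and 1 of its markers are not reported here.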

Additional observations from a re-analysis of the deposited data

How the results depend on the processing

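TRIM22, TRIM21, TRIM5, TRIM14, TRIM56, TRIM25 and TRIM38 were called higher in all 14 refits. The count of higher members ran from 7 to 11 over all settings. The count of 2 lower members became 0 with library totals only, 4 with no filter on low counts and 4 at unadjusted P < 0.01, and it ran from 1 (without siControl replicate 2) to 3 (without siALDOA replicate 3) over the fits without 1 library. With library totals only, the log2 fold changes of TRIM24, TRIM31 and TRIM32, which were not called, turned to 0.026, 0.047 and 0.049. Over the fits without 1 library, TRIM24 ran from -0.10 (without siALDOA replicate 1) to 0.00054 (without siALDOA replicate 3). TRIM31 ran from -0.092 to 0.075, with 0.051 without siALDOA replicate 2 and the highest value without siControl replicate 1. TRIM32 ran from -0.089 to 0.029, with 0.0089 without siALDOA replicate 1 and the highest value without siControl replicate 1. The cause of the changes was not tested. With a replicate block 14 members were called, the 10 named above with TRIM16 (adjusted p = 0.0264), TRIM2 (0.0074), TRIM4 (0.0285) and TRIM66 (0.0280), by edgeR. The deviations of samples with the same replicate number correlated at 0.123, 0.0765 and 0.0793 over 13724 genes, so the numbers were not taken to pair the samples. Members with few counts, such as TRIM63 and TRIM72, had standard errors of 0.60 and 0.47, and changes of their size could not be detected.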
